A study of Mus musculus with 83 samples.

Results

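Genes that load amino acids onto transfer RNA, carry amino acids into the cell or make serine, asparagine and one-carbon units were followed in single mouse ovarian follicles after an ovulatory stimulus. The group was set by name and holds 34 of the 21572 gene rows of the deposited count table. It has 20 cytosolic aminoacyl-tRNA synthetase genes, 8 amino acid transporter genes, 3 genes of serine synthesis, 2 genes of mitochondrial folate metabolism and Asns, the gene of asparagine synthetase. All 34 were listed under these symbols, and all 34 passed the filter on low counts, so none was left out of a test.

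Each of the 83 libraries was made from 1 wild-type CD-1 follicle. All groups shared the same culture, in 0.5% alginate to day 8, and follicles 300 to 350 µm wide were then stimulated with 1.5 IU/ml human chorionic gonadotropin (hCG) together with EGF (10 ng/ml) and recombinant FSH (10 mIU/ml). Fresh follicles were taken at 0 h (n = 18), 1 h (n = 6), 4 h (n = 7) and 8 h (n = 4). Follicles that had been vitrified, a rapid cooling into a glassy state without ice, were taken at 0 h (n = 15), 1 h (n = 14), 4 h (n = 7) and 8 h (n = 12). The study asked whether vitrification alters the course of gene expression during ovulation outside the body. The 0 h libraries had a plate of their own, so time and plate cannot be told apart in the step from 0 to 1 h. A plate shared by fresh and vitrified follicles held every other fresh library and 5, 7 and 3 vitrified libraries of 1, 4 and 8 h. A further plate held only vitrified follicles, 9 of 1 h and 9 of 8 h, and is treated apart. Plates were read from the library names. No plate row held more than 1 group, so group and row cannot be told apart within a plate. On the shared plate some sample numbers of fresh 8 h libraries repeat those of fresh 4 h. Some of vitrified 1 h libraries repeat those of fresh 1 h. What this repeat reflects is not named, so these libraries may have been handled apart. Animals and culture runs are not named, so p-values measure the spread between these follicles, which may be partly technical.

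Aminoacyl-tRNA synthetases join each amino acid to its own transfer RNA, and translation stops at a codon whose loaded transfer RNA runs out. Transporters of the solute carrier families bring amino acids through the plasma membrane, while serine, glycine and asparagine can also be made in the cell. Many genes of all these kinds are known targets of ATF4, a transcription factor whose protein accumulates when amino acids run short or proteins misfold, and which pairs with C/EBP proteins on DNA. In the follicle, hCG acts on the receptor for luteinizing hormone. Granulosa cells then give up estradiol synthesis, turn to progesterone and secrete a matrix around the oocyte.

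Total counts per library ran from 682200 to 6504588, and between 11830 and 17233 genes had a count. Levels below are CPM, counts relative to library size with TMM scaling, which corrects for a few genes taking a large part of the counts. Of the marker lists, that of granulosa cells had the highest sum in fresh libraries. Its 9 genes summed to 37216 to 68612 CPM in fresh 0 h libraries, 53778 to 81898 at 1 h, 46048 to 72349 at 4 h and 10276 to 14817 at 8 h. Of its 8 tested genes 1 rose and 5 fell from 1 to 4 h in fresh follicles. Amh, one of its defining markers, was at 0 to 3.74 CPM in fresh libraries, and Cyp19a1, the estradiol-making aromatase, went from a mean of 2301 ± 524 CPM at 1 h to 10.6 ± 5.45 at 4 h. The 12 oocyte genes summed to 8.57 to 101 CPM at 0 h and 8.73 to 80.6 at 4 h. The 8 theca and stroma genes summed to 264 to 2726 CPM at 0 h, 183 to 1908 at 4 h and 104 to 415 at 8 h, the 5 endothelial genes to at most 100.4 CPM and the 5 immune genes to at most 97.3 CPM in a fresh library. Some sums differed in mean between the kinds, with the immune genes at 31.8 ± 16.4 CPM in fresh and 2.38 ± 3.05 in vitrified follicles of 1 h on the shared plate, the endothelial genes at 50.6 ± 36.1 and 13.3 ± 8.75. The theca and stroma genes of 0 h were at 1365 ± 811 in fresh and 841 ± 605 CPM in vitrified follicles. The granulosa genes were at 54905 ± 8757 and 64180.1 ± 8816 CPM at 0 h and at 66986 ± 11986 and 82806 ± 8242 CPM at 1 h. In follicles sequenced whole, fewer cells of a type and less RNA per cell cannot be told apart, and the part of these shifts in the results below was not tested.

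Between 1 and 4 h after hCG most of the 34 genes rose, in fresh and in vitrified follicles alike. In fresh follicles 24 of 34 rose and 1 fell, with a median log2 fold change of 1.19, while 21.9% of all 11889 genes tested rose, 24.5% fell and the median over all genes was -0.03. In vitrified follicles of the same plate 24 rose and 3 fell (median 1.09), against 20.6% and 25.9% of all genes and a median of -0.11. The 24 that rose were the same 24 genes in both. These calls come from edgeR's quasi-likelihood test at an adjusted p (Benjamini-Hochberg over all genes) under 0.05, as do all calls below. Of the 3 that fell in vitrified follicles, 1 was still called without the first vitrified 1 h library, and of the 24 that rose there Aars, Lars and Vars each lost the call when 1 or another of the 1 h libraries was left out.

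The steps before and after moved the group less evenly. From 0 to 1 h in fresh follicles 18 rose and 2 fell (all genes 19% and 23.1%), and in vitrified follicles 14 rose and 2 fell (21.5% and 22%). Scaled to total counts alone, the 0 to 1 h split became 12 higher and 11 lower in fresh follicles (median 0.01, all genes -0.60) and 8 and 12 in vitrified follicles (-0.01, all genes -0.65). Of all 11889 genes 1159 were then higher and 5266 lower in fresh follicles, and 1259 and 5375 in vitrified follicles. From 4 to 8 h in fresh follicles 14 fell and 1 rose (all genes 15.7% and 20.8%), with a median of -0.56 against 0.12 over all genes. In vitrified follicles 15 fell and 3 rose (15% and 22%), with a median of -0.53 against 0.17. With total counts alone these became 12 lower and 10 higher in fresh follicles (median 0.06, all genes 0.75) and 10 and 10 in vitrified follicles (0.09, all genes 0.73), so the sign of the median, but not its place below that of all genes, turned with the scaling. Of all 11889 genes 715 were then lower and 5093 higher in fresh follicles, and 835 and 4717 in vitrified follicles. The steps from 1 to 4 h and from 4 to 8 h share the 4 h libraries and are given side by side, not as independent tests.

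**Figure D1:**
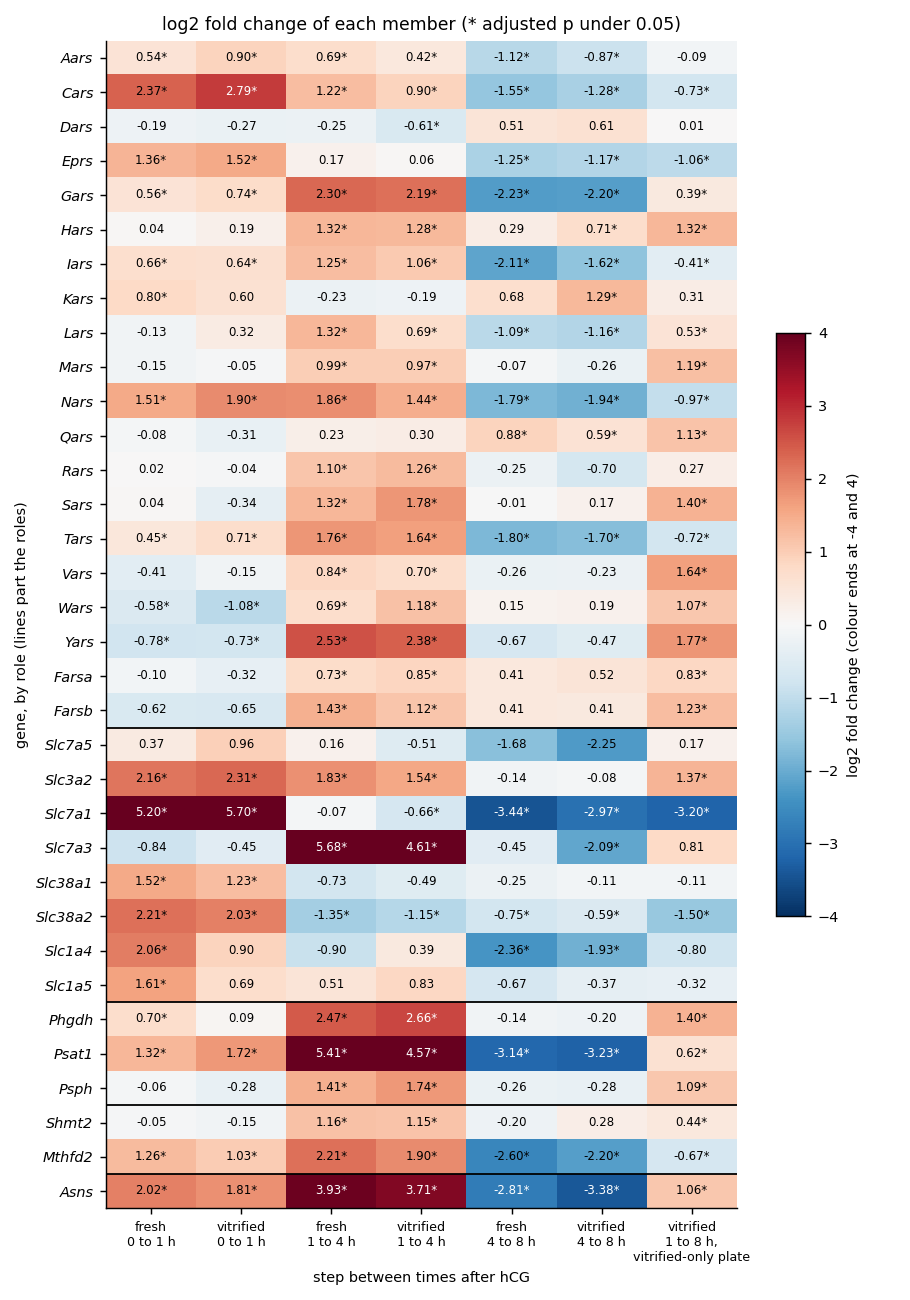
Log2 fold change of each of the 34 members (rows, parted by role) in 7 steps between times after hCG (columns), from edgeR with TMM scaling; an asterisk marks an adjusted p under 0.05 and the colour scale ends at -4 and 4. In the columns for 1 to 4 h 24 cells are called higher in fresh and 24 in vitrified follicles, and in those for 4 to 8 h 14 and 15 are called lower. With total counts alone 12 and 10 are called lower for 4 to 8 h (715 and 835 of all 11889 genes). For 0 to 1 h the calls then turn from 18 higher and 2 lower to 12 and 11 in fresh follicles (all genes 1159 and 5266). In vitrified follicles they turn from 14 and 2 to 8 and 12 (all genes 1259 and 5375). The value of Slc7a3 for 1 to 4 h in fresh follicles is a fitted value against libraries that are all at 0.

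Promoter sequence was read for the members because so many of them moved together. RefSeq windows of 250 bases before to 50 after the transcription start (GRCm38.p6) matched 23 of the 34 by symbol, with Mars listed as Mars1. The motif TGATGNAA, the core of the C/EBP-ATF response element, was searched on both strands. A window of 7 of the 23 genes held it (30.4%), against 4.51% of the 27025 genes in the table and 3.97% of its 32851 windows. For each of these 7 genes 1 site is shown, the one nearest the start, because the report sets the steps of genes with and without this motif side by side. Each is written 5′ to 3′ along the strand that reads TGATGNAA, with the motif in capitals.

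Asns: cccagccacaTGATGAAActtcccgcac
Gars: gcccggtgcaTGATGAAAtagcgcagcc
Yars: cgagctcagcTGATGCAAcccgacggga
Tars: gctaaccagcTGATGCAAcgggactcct
Iars: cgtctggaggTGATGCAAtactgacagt
Aars: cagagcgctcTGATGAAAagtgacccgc
Slc1a4: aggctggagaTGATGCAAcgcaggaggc

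Starts in this paragraph are those of RefSeq. The Asns site lies at chr6:7693215-7693242 on the minus strand, which is the strand of the gene, with its first motif base 23 before the start. By GENCODE the Asns gene reaches to 7693254 and so includes this site. The Gars site (chr6:55037961-55037988, motif from 30 bases before the start), the Tars site (chr15:11399656-11399683, from 15 before) and the Slc1a4 site (chr11:20332700-20332727, from 4 before and so across the start) read the motif on the strand opposite to the gene. Those of Yars (chr4:129189896-129189923, same strand, from base 4) and Iars (chr13:49682127-49682154, opposite strand, from base 8) fall in the first transcribed bases. The Aars site (chr8:111033841-111033868, opposite strand, from base 10) does so as well. By GENCODE the Yars and Aars genes begin further upstream, at 129189760 and 111033144. From 1 to 4 h in fresh follicles 6 of the 7 genes with the motif rose (median 1.76), as did 10 of the 16 with a window that lacks it (median 1.07). Of all genes 21.9% rose in that step. From 4 to 8 h 6 of the 7 fell (median -2.11) and 5 of the 16 fell (median -0.14), and in vitrified follicles 6 and 5 fell. Over all genes 15.7% fell in fresh and 15% in vitrified follicles. On the vitrified-only plate 3 of the 7 were higher and 2 lower at 8 h than at 1 h. Of the 16, 10 were higher and 4 lower there (all genes 32% and 27.4%). Members without a window are in neither set, among them Cars, Nars and Lars, which rose and then fell in both kinds. Slc1a4 was the holder that did not pass the test from 1 to 4 h, and Yars from 4 to 8 h. CACGTG, the E-box bound by Myc family factors, was in those of 4 genes (17.4%; Aars, Iars, Tars and Farsb) against 8.09% of genes. Of the related lists, TGATGNAA was in 5 of 20 amino acid response genes, 2 of 18 other transporters, 2 of 16 other synthesis genes, none of 14 mitochondrial synthetases and none of 3 scaffold genes with a window. A match is a string of letters and not evidence that a factor binds.

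Of the 8 transporters 6 rose from 0 to 1 h in fresh follicles, against 19% of all genes. Slc7a1 encodes the main carrier of arginine and lysine (chr5:148327410-148399904, GRCm38, minus strand). In fresh follicles its lowest, median and highest levels were 15.5, 20.9 and 42.5 CPM at 0 h and 638, 762 and 1203 at 1 h. It stayed at 542, 851 and 1139 CPM at 4 h and was 78.5, 72.6, 69.5 and 83 in the 4 libraries of 8 h. The 0 h and 1 h groups did not overlap, the 1 h and 4 h groups did, and every 8 h library lay below every 4 h library. The log2 fold changes were 5.20 ± 0.16 (SE) from 0 to 1 h, -0.07 ± 0.20 from 1 to 4 h and -3.44 ± 0.26 from 4 to 8 h (edgeR adjusted p = 4.40e-47, 0.81 and 4.96e-19). Vitrified follicles gave 12.2 to 33.8 CPM at 0 h, 1924, 1480.0, 527, 1379 and 1025 in the 5 shared-plate libraries of 1 h, 617 to 1057 at 4 h and 80.5, 96.5 and 129 at 8 h. Here the fall from 1 to 4 h passed the test (-0.66 ± 0.21, edgeR adjusted p = 0.00563). Without the first of the 1 h libraries its adjusted p was 0.0724 (edgeR), in limma it was 0.214, and the difference from the fresh step was not called.

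Slc3a2 is the heavy chain (4F2hc) that carries several light-chain exchangers, Slc7a5 among them, to the cell surface (chr19:8706882-8723369, minus strand). Its fresh levels had a low, median and high of 106, 222 and 279 CPM at 0 h, 787, 957 and 1254 at 1 h and 2828, 3606 and 3946 at 4 h, with 2283, 3916, 3514 and 2855 at 8 h. The 0, 1 and 4 h groups lay apart from each other in order of time, and the 8 h libraries overlapped those of 4 h. It rose by 2.16 ± 0.13 and then 1.83 ± 0.17 on the log2 scale (edgeR adjusted p = 3.80e-27 and 9.11e-16) and was -0.14 ± 0.18 from 4 to 8 h, which did not pass the test. In vitrified follicles the rises were 2.31 ± 0.14 and 1.54 ± 0.18, from 204 to 351 CPM at 0 h to 1080.0, 1609, 1483, 1314 and 1575 at 1 h and 3419 to 4844 at 4 h. Slc7a5, the best known partner of Slc3a2, stayed low and uneven, at 0 to 16.3 CPM at 0 h and 0.529 to 13.1 at 4 h in fresh follicles, and passed no test in any step.

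Slc1a4, a carrier of alanine, serine and cysteine (chr11:20302180-20332713, minus strand), was low throughout. Fresh follicles had a low, median and high of 0, 2.27 and 8.38 CPM at 0 h, 6.2, 11.8 and 27.4 at 1 h and 2.6, 5.99 and 13.6 at 4 h, and 0.712, 1.55, 0 and 2.58 at 8 h. The 0 h and 1 h groups overlapped, as did those of 1 h and 4 h, and all 8 h libraries were below all of 4 h. It rose by 2.06 ± 0.36 from 0 to 1 h and fell by 2.36 ± 0.58 from 4 to 8 h (edgeR adjusted p = 1.19e-06 and 6.83e-04). In vitrified follicles the levels were 3.85, 4.08, 7.31, 6.87 and 6.73 CPM at 1 h, 3.5 to 10.0 at 4 h and 1.24, 2.89 and 1.46 at 8 h. The first step there was 0.90 ± 0.42, which did not pass the test, and the last -1.93 ± 0.62 (edgeR adjusted p = 0.00945). This last call was lost without vitrified 8 h library 3 and with total counts alone (-1.74 and -1.32, edgeR adjusted p = 0.0579 and 0.071).

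Slc38a2, a sodium-coupled carrier of small neutral amino acids, peaked at 1 h. Its fresh means were 325 ± 76.1 CPM at 0 h (SD, n = 18), 1509.5 ± 479.8 at 1 h (n = 6), 591 ± 75.9 at 4 h (n = 7) and 352 ± 97.2 at 8 h (n = 4). It was the only member that fell from 1 to 4 h in fresh follicles (-1.35 ± 0.18), and it fell in vitrified follicles too (-1.15 ± 0.19). Its relative Slc38a1 rose from 0 to 1 h (1.52 ± 0.28 in fresh and 1.23 ± 0.30 in vitrified follicles, or 0.63 with an edgeR adjusted p of 0.0886 with total counts alone). Slc1a5, a glutamine carrier, rose in fresh follicles from 1.67 ± 0.945 to 5.07 ± 1.64 CPM (1.61 ± 0.38). Slc7a3, a second carrier of cationic amino acids, was at 0 in all 6 fresh 1 h libraries and at 0.529 to 4.48 CPM in those of 4 h, at least 9.16-fold higher when the 1 h group is given 3 counts. In vitrified follicles Slc7a3 was at 0.108 ± 0.242 CPM at 1 h (SD, n = 5) and at 3.82 ± 3.23 CPM at 4 h (n = 7). Its later fall in vitrified follicles (-2.09 ± 0.80, edgeR adjusted p = 0.0329) had an adjusted p of 0.0504, 0.154 and 0.0812 without each of the 3 vitrified 8 h libraries. Over all 8 transporters 6 rose from 0 to 1 h in fresh follicles, 2 rose and 1 fell from 1 to 4 h, and 3 fell from 4 to 8 h. Of all genes 19% rose in the first step, 21.9% rose and 24.5% fell in the second, and 15.7% fell in the last. The fresh fall of Slc38a2 from 4 to 8 h was not called with total counts alone (-0.13, edgeR adjusted p = 0.622). Nor was it in limma (-0.0027, adjusted p = 0.993). Their summed level went from 591 ± 99.7 CPM at 0 h to 3415 ± 676, 4930.0 ± 548 and 3601 ± 809 at 1, 4 and 8 h. On the authors' TPM scale the same sum was 889.7 ± 82.3 at 4 h and 1238 ± 203 at 8 h, so the direction of this last change turns with the scale.

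Most synthetases rose from 1 to 4 h. Of the 20, 8 rose and 2 fell from 0 to 1 h in fresh follicles, 16 rose and none fell from 1 to 4 h (median 1.16), and 8 fell and 1 rose from 4 to 8 h. In vitrified follicles these counts were 7 and 2, 16 and 1, and 8 and 3. Over all genes 19% rose and 23.1% fell, 21.9% and 24.5%, and 20.8% and 15.7% in these fresh steps. In the vitrified steps the shares were 21.5% and 22%, 20.6% and 25.9%, and 22% and 15%. Scaled to total counts, the fresh 0 to 1 h rises of Aars, Gars, Iars, Kars and Tars lost their calls (-0.0394 to 0.317). So did those of Aars, Gars, Iars and Tars in vitrified follicles (0.0275 to 0.283). The summed level of the 20 genes went from 413 ± 53.7 CPM at 0 h (SD, n = 18) to 591 ± 52.6 at 1 h (n = 6), 1426 ± 92.6 at 4 h (n = 7) and 736 ± 75.2 at 8 h (n = 4). The vitrified sums were 383 ± 51.6, 600.1 ± 131, 1325 ± 106 and 712 ± 66.9 CPM. On the authors' TPM scale the sums did not fall after 4 h, with 197 ± 25 at 4 h and 211 ± 6.25 at 8 h in fresh follicles and 183 ± 19.3 and 187 ± 37.4 in vitrified follicles.

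Gars, which loads glycine (chr6:55038007-55079500, plus strand), had its larger rise from 1 to 4 h. Its low, median and high in fresh follicles were 28.2, 46.2 and 60.4 CPM at 0 h, 60.2, 66.5 and 76.5 at 1 h and 256, 347 and 402 at 4 h, followed by 70.6, 72.7, 76.8 and 65.4 at 8 h. All 4 h libraries stood above those of 1 h and of 8 h, while 0 h and 1 h overlapped. The changes were 0.56 ± 0.13, 2.30 ± 0.16 and -2.23 ± 0.19 (edgeR adjusted p = 2.66e-04, 1.75e-21 and 1.02e-16). The first of these was 0.06 with total counts alone and 0.33 in limma, neither called (adjusted p = 0.758 and 0.0616, edgeR and limma). Vitrified follicles went from 39.1, 68.1, 88.6, 66.3 and 85.4 CPM at 1 h to 267 to 384 at 4 h and 70.5, 74.3 and 62.7 at 8 h, with changes of 2.19 ± 0.17 and -2.20 ± 0.22.

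Nars, the asparaginyl-tRNA synthetase, had begun to rise by 1 h. Fresh lows, medians and highs were 17.9, 28.1 and 36.1 CPM at 0 h, 57, 78.5 and 108 at 1 h and 237, 292 and 332 at 4 h, and the 8 h libraries held 72.2, 79.8, 109 and 71.8. No 2 neighbouring times overlapped. The steps were 1.51 ± 0.15, 1.86 ± 0.19 and -1.79 ± 0.22 (edgeR adjusted p = 2.37e-15, 2.38e-14 and 8.06e-11). In vitrified follicles Nars was at 73.2, 93.4, 154, 66.3 and 79.1 CPM at 1 h, 201 to 299.7 at 4 h and 61, 83.5 and 54.1 at 8 h.

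Cars, which loads cysteine (chr7:143557230-143600090, minus strand), had its larger fold change in the first hour. It had a low, median and high of 2.51, 4.86 and 8.3 CPM at 0 h, 15.4, 26.5 and 36.9 at 1 h and 55.4, 61 and 76.6 at 4 h in fresh follicles, then 19.2, 23.2, 25.9 and 17.9 at 8 h. The groups of neighbouring times did not overlap. Log2 fold changes were 2.37 ± 0.19, 1.22 ± 0.23 and -1.55 ± 0.26 (edgeR adjusted p = 3.03e-19, 4.91e-06 and 1.32e-06). Vitrified levels were 33.8, 40.0, 42, 15.8 and 31.3 CPM at 1 h, 47.3 to 75.2 at 4 h and 19.1, 26.5 and 28.9 at 8 h.

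Yars, the tyrosyl-tRNA synthetase (chr4:129189760-129219607, plus strand), dipped before it rose. Fresh lows, medians and highs were 5.59, 13.2 and 18.5 CPM at 0 h, 3.01, 6.17 and 13.7 at 1 h and 33.8, 39.2 and 55.8 at 4 h, with 25.8, 28.3, 26.4 and 23.6 at 8 h. The 0 h and 1 h groups overlapped, the 4 h group lay above both, and the 8 h group lay just below that of 4 h. It fell by 0.78 ± 0.27 from 0 to 1 h and rose by 2.53 ± 0.30 from 1 to 4 h (edgeR adjusted p = 0.0142 and 2.72e-11), and -0.67 ± 0.30 from 4 to 8 h did not pass the test. In vitrified follicles it went from 4.4, 6.52, 13.3, 3.64 and 5.21 CPM at 1 h to 26.9 to 45.7 at 4 h (2.38 ± 0.32). The vitrified fall from 0 to 1 h (-0.73 ± 0.28) lost its call without 1 h library 1, 2, 4 or 5 (edgeR adjusted p = 0.105, 0.0531, 0.113 and 0.0897).

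Of the other synthetases, Tars (threonine; 1.76 ± 0.20), Farsb (a subunit of the phenylalanine enzyme; 1.43 ± 0.30), Sars (serine; 1.32 ± 0.18), Lars (leucine; 1.32 ± 0.27), Hars (histidine; 1.32 ± 0.22), Iars (isoleucine; 1.25 ± 0.20) and Rars (arginine; 1.1 ± 0.26) rose at least 2-fold from 1 to 4 h in fresh follicles. Mars, Vars, Farsa, Aars and Wars, for methionine, valine, phenylalanine, alanine and tryptophan, rose by 0.69 to 0.99. Iars, Tars, Eprs, Aars and Lars fell from 4 to 8 h by 2.11, 1.80, 1.25, 1.12 and 1.09. Of these, Lars was not called with total counts alone (-0.46, edgeR adjusted p = 0.208) and Aars was not called in limma (-0.31, adjusted p = 0.192). Wars lost its call from 1 to 4 h in limma (0.31, adjusted p = 0.069). Eprs, which loads glutamate and proline, rose in the first hour (1.36 ± 0.14) and was level from 1 to 4 h (0.17 ± 0.18, not called). Qars, for glutamine, was the member that rose from 4 to 8 h in fresh follicles, from 33.4 ± 4.35 to 61.3 ± 6.94 CPM (0.88 ± 0.20, edgeR adjusted p = 1.80e-04); in vitrified follicles Hars and Kars rose as well. Without the third vitrified 8 h library 1 of those 3 was still called, and Hars and Kars were not (edgeR adjusted p = 0.446 and 0.248). The vitrified rise of Qars lost its call without the first or the second (edgeR adjusted p = 0.178 and 0.147). Without the fourth fresh 8 h library 2 members were called higher in fresh follicles. Kars, for lysine, was uneven at 4 h in fresh follicles (13.4 to 53.9 CPM), and rose from 0 to 1 h (0.80 ± 0.26), a call lost with total counts alone (0.32, edgeR adjusted p = 0.315) and in limma (0.55, adjusted p = 0.0506).

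Dars and Mars had the smallest spans of all 34 between their highest and lowest group. Dars, which loads aspartate, had a low, median and high of 14.4, 22.3 and 36.3 CPM at 0 h, 14.3, 20.3 and 24.5 at 1 h and 11.7, 15.9 and 24.3 at 4 h in fresh follicles and 28.1, 23.5, 24 and 18.4 at 8 h. Its groups overlapped at every step, and no fresh step passed the test. Mars had 10.1, 21.6 and 29.6, 16.4, 19 and 27.6 and 29.9, 35.9 and 56.6 CPM at these times and 39.1, 31.2, 36.2 and 44.6 at 8 h, with only the step from 1 to 4 h called (0.99 ± 0.20, edgeR adjusted p = 1.90e-05).

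**Figure D2:**
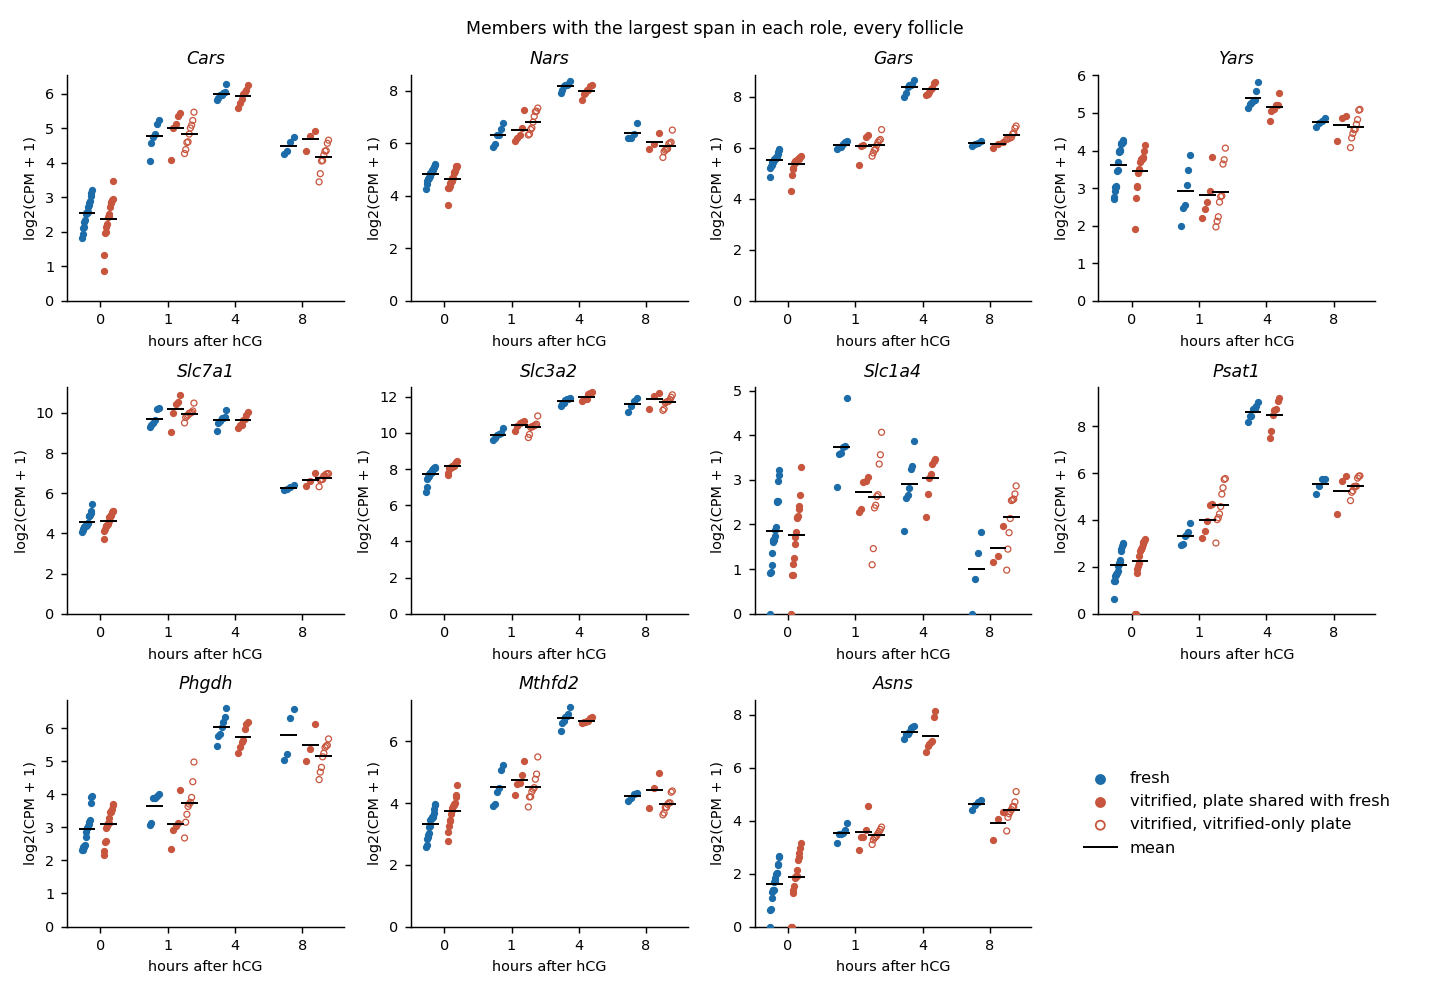
Level of 11 members in every follicle as log2(CPM + 1) on the vertical axis against hours after hCG, with fresh follicles in blue, vitrified follicles of the plate shared with fresh ones in filled red and those of the vitrified-only plate in open red; black lines are means of the plotted values. Psat1, Asns, Gars and Mthfd2 stand highest at 4 h in both kinds, Slc7a1 is high at 1 and 4 h, and Slc3a2 is still at 2283 to 3916 CPM at 8 h in fresh follicles.

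Psat1 and Asns showed the largest rises from 1 to 4 h in fresh follicles, apart from Slc7a3 with its 1 h libraries at 0. Psat1, the transaminase of the second step of serine synthesis (chr19:15904678-15947337, minus strand), had a low, median and high of 0.531, 3.22 and 7.08 CPM at 0 h, 6.52, 9.33 and 13.7 at 1 h and 285, 425 and 519.9 at 4 h in fresh follicles, and 52, 43.3, 52.3 and 33.9 at 8 h. All 4 h libraries were above all others, and the 8 h libraries were above those of 0 and 1 h. Psat1 changed by 1.32 ± 0.32, 5.41 ± 0.40 and -3.14 ± 0.41 (edgeR adjusted p = 5.18e-04, 5.30e-20 and 1.73e-09). Vitrified follicles had 8.25, 24.1, 24.4, 10.5 and 14.3 CPM at 1 h, 182, 414 and 585 (low, median and high) at 4 h and 57.2, 49.6 and 17.9 at 8 h, with steps of 4.57 ± 0.41 and -3.23 ± 0.47. The vitrified 4 h libraries were spread more widely than the fresh ones and overlapped them.

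Phgdh, the dehydrogenase that opens serine synthesis (chr3:98313170-98339990, minus strand), rose and did not return by 8 h. Its fresh low, median and high were 3.98, 6.89 and 14.4 CPM at 0 h, 7.44, 13.7 and 15.2 at 1 h and 42.9, 64.8 and 97.2 at 4 h, and at 8 h it stood at 78.8, 36.5, 31.8 and 93.5. The 4 h group lay above that of 1 h and overlapped that of 8 h, whose libraries were widely spread. Steps were 0.70 ± 0.26, 2.47 ± 0.31 and -0.14 ± 0.31, the last of which did not pass the test (edgeR adjusted p = 0.0236, 9.26e-11 and 0.762). The first lost its call with total counts alone (0.22, edgeR adjusted p = 0.538), without the filter on low counts (0.67, adjusted p = 0.0506) and in limma (0.32, adjusted p = 0.173). Vitrified follicles rose from 7.15, 7.75, 16.5, 4.04 and 6.52 CPM at 1 h to 36.8 to 72.4 at 4 h (2.66 ± 0.33) and had 40.6, 69.2 and 30.9 at 8 h. Psph, the phosphatase of the last step, rose from 4.11 ± 1.47 to 10.7 ± 3.93 CPM in fresh follicles (1.41 ± 0.36) and was not called afterwards.

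Mthfd2, a mitochondrial enzyme that oxidises the one-carbon unit taken from serine (chr6:83305691-83325908, minus strand), rose in both early steps. Fresh lows, medians and highs were 4.98, 9.94 and 14.8 CPM at 0 h, 14, 20.6 and 36.5 at 1 h and 79.4, 109 and 137 at 4 h, and the 8 h libraries had 18.7, 19, 15.7 and 17.1. The 4 h group stood clear of the groups on either side of it, and 0 h and 1 h overlapped. Changes were 1.26 ± 0.19, 2.21 ± 0.23 and -2.60 ± 0.27 (edgeR adjusted p = 3.98e-08, 1.64e-13 and 7.03e-13). Vitrified levels were 23.7, 28.9, 40.1, 18.2 and 24.1 CPM at 1 h, 96.2 to 108 at 4 h and 13.3, 21.5 and 30.2 at 8 h. Shmt2, the mitochondrial enzyme that splits serine into glycine and a one-carbon unit, rose from 42.2 ± 8.23 to 94.1 ± 16.3 CPM (1.16 ± 0.23) and did not pass the test from 4 to 8 h.

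Asns makes asparagine from aspartate and glutamine (chr6:7675169-7693254, minus strand) and is a standard readout of ATF4 activity. Its low, median and high in fresh follicles were 0, 2.26 and 5.42 CPM at 0 h, 7.89, 10.4 and 14 at 1 h and 135, 161 and 187 at 4 h, and the 8 h libraries held 22.8, 20.3, 26.4 and 25.2. No library of 1 time overlapped one of a neighbouring time. The steps were 2.02 ± 0.29, 3.93 ± 0.34 and -2.81 ± 0.36 (edgeR adjusted p = 8.48e-09, 3.06e-17 and 1.11e-09). In vitrified follicles Asns was at 11.6, 9.38, 22.2, 6.46 and 9.34 CPM at 1 h, at a low, median and high of 95.2, 124 and 281 at 4 h and at 8.71, 19.3 and 15.9 at 8 h, with steps of 3.71 ± 0.35 and -3.38 ± 0.43.

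Levels of different genes can be set side by side only per length of transcript. On the authors' TPM scale (relative to transcript length and library size, recovered from their log2 values) the order in fresh follicles at 0 h was led by Slc38a2 (100.2 ± 25.5, SD, n = 18), Slc3a2 (51.1 ± 15), Shmt2 (31.6 ± 12.5) and Qars (14.1 ± 2.91). Aars, Nars, Sars, Mars and Farsa came next between 5.37 and 6.54 TPM and did not differ beyond their spread. At 4 h Slc3a2 led with 689 ± 57.8 TPM (n = 7), ahead of Slc38a2 at 158 ± 21.7. Shmt2 (59.1 ± 14.9) and Nars (55.8 ± 9.19) followed with overlapping spreads, then Slc7a1 (37.7 ± 9.89), Psat1 (31.3 ± 8.52), Asns (30.2 ± 5.09) and Gars (26.6 ± 4.26), which also overlapped. Psat1 had been the 33rd of 34 at 0 h and was the 6th at 4 h.

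Vitrified follicles were set against fresh ones at each time within a plate, where each group had rows of its own. At 0 h 1 member of 34 was called, Slc3a2, against 0.538% of all genes higher and 0.429% lower in vitrified follicles. Slc3a2 stood at a low, median and high of 204, 287 and 351 CPM in vitrified and 106, 222 and 279 in fresh follicles, which overlap (0.39 ± 0.10, edgeR adjusted p = 0.0388). The call was lost with total counts alone, without the filter on low counts and in limma on the authors' log2 values (adjusted p = 0.188, 0.0942 and 0.413) and kept in DESeq2 (adjusted p = 0.00667). DESeq2 called 2 members higher at 0 h (109 of all 10275 genes). Limma called 7 of 27 lower at 0 h, against 1392 of all 7244 genes, and the median over all genes on that scale was -0.22.

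At 1, 4 and 8 h no member was called by edgeR, DESeq2 or limma. By edgeR 5, 2 and 2 of 34 had an unadjusted p under 0.05 at these times, against 1227, 770 and 1357 of all 11889 genes. By adjusted p 0.521% of all genes were higher and 0.0336% lower at 1 h. The shares were 0.0757% and 0.0421% at 4 h and 0.311% and 1.75% at 8 h. These shares rest on few libraries: the 62 genes higher at 1 h became 4 without vitrified 1 h library 4, and the 37 higher and 208 lower at 8 h became 2 and 57 without vitrified 8 h library 3. Leaving out fresh 8 h library 1, 3 or 4 left 13, 21 or 10 higher, and leaving out vitrified 8 h library 1 or 2 gave 84 or 81 higher, the latter with 137 lower. A call that was missed does not show that levels were alike, so the intervals are given. The 95% interval of the difference lay within 1 log2 unit of 0 for 31 of 34 members at 0 h, 27 at 1 h, 31 at 4 h and 21 at 8 h. At 4 h Asns differed by -0.08 (interval -0.61 to 0.45), Psat1 by -0.04 (-0.63 to 0.54) and Gars by -0.07 (-0.36 to 0.22). At 1 h Slc1a4 had the lowest value of the 34, -1.21 (-2.15 to -0.27), and 1 fresh library at 27.4 CPM stood apart. At 8 h Asns was at 8.71, 19.3 and 15.9 CPM in the 3 vitrified libraries, a difference from the 4 fresh ones of -0.66 (-1.45 to 0.14) that did not pass the test.

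**Figure D3:**
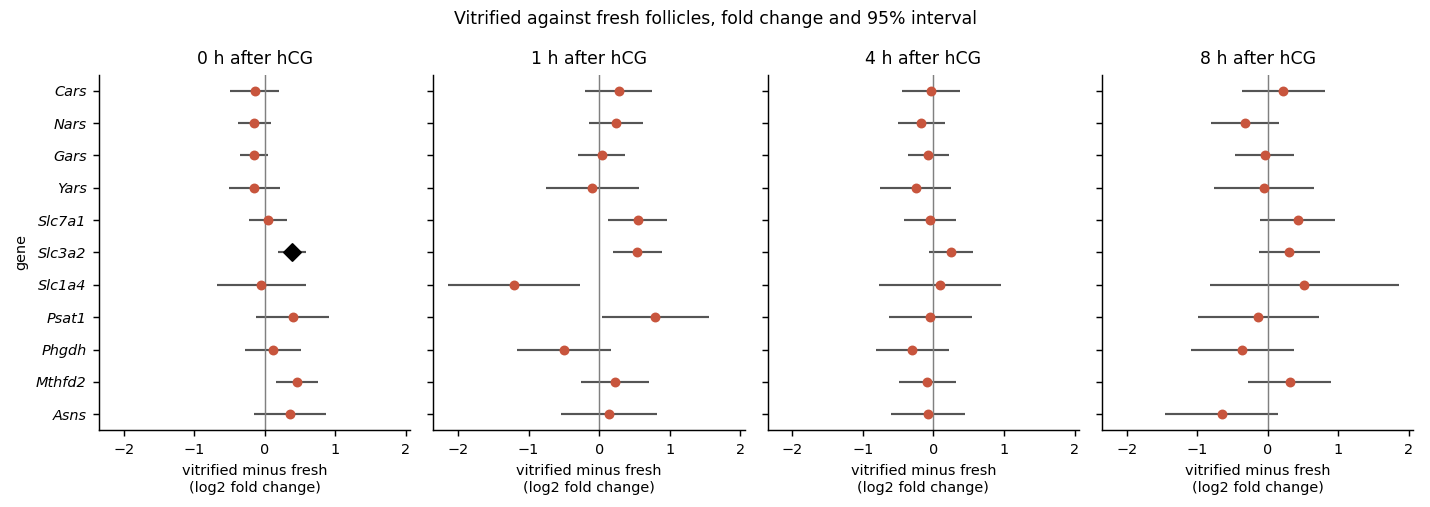
Log2 fold change of vitrified against fresh follicles (points) with its 95% interval (lines) for 11 members at 0, 1, 4 and 8 h after hCG, from edgeR within 1 plate; the diamond marks the only call at an adjusted p under 0.05. Slc3a2 at 0 h (0.39) is called, and at 4 h the intervals of Asns, Psat1 and Gars lie between -0.63 and 0.54.

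The steps themselves were also compared. No member differed between the vitrified and the fresh step from 0 to 1 h, 1 to 4 h or 4 to 8 h by edgeR, DESeq2 or limma, while 0.160%, 0.0421% and 0.993% of all genes did by edgeR. The last share, 5 higher and 113 lower, became none and 18 without vitrified 8 h library 3 and none and 6 with an additive plate term, and leaving out vitrified 8 h library 2 or fresh 8 h library 2 or 3 left 49, 52 or 65 lower. For 0 to 1 h the 17 higher became 3 without vitrified 1 h library 4 and 34 to 40 without another of the 5. Of the members 2, 2 and none had an unadjusted p under 0.05 by edgeR, against 875, 781 and 1031 of all 11889 genes. Across the 34 genes the fresh and vitrified fold changes had the same sign in 31, 32 and 32, with a median absolute difference of 0.23, 0.26 and 0.18 log2 units. Pearson's r across these genes, which are not independent replicates, was 0.952, 0.962 and 0.941. The largest differences belonged to Slc1a4 in the first 2 steps (1.15 and 1.30) and to Slc7a3 in the third (1.64), both low in counts.

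**Figure D4:**
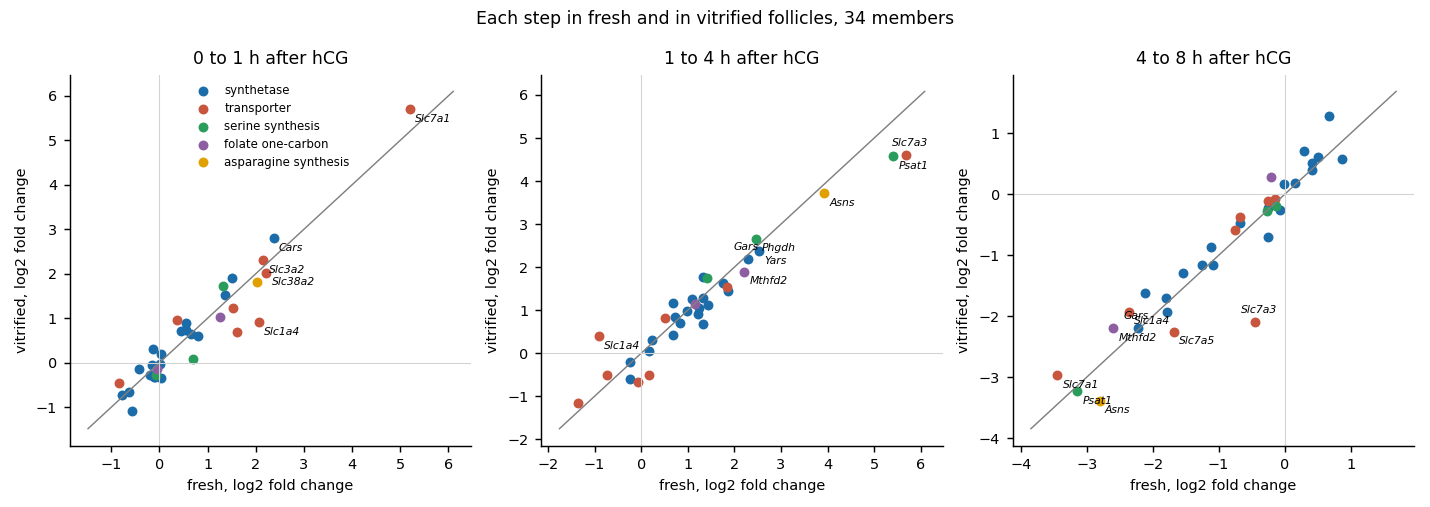
Log2 fold change in vitrified (vertical) against fresh follicles (horizontal) for the 34 members in each of 3 steps after hCG, coloured by role, with the line of equal change in grey. Most points lie near the line (r = 0.952, 0.962 and 0.941), and Slc1a4 and Slc7a3 lie farthest from it; the fresh value of Slc7a3 from 1 to 4 h rests on libraries at 0.

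On the vitrified-only plate, which lacks 4 h follicles, 17 members were higher and 8 lower at 8 h than at 1 h, against 32% and 27.4% of all genes. With total counts alone 23 were higher and 2 lower (member median 1.18, all genes 0.89), against 6497 and 1589 of all 11889 genes. The balance of calls thus depends on the scaling. Yars (7.4 ± 4.64 to 24.4 ± 5.85 CPM, SD, n = 9 and 9; 1.77 ± 0.26), Vars (1.64 ± 0.25), Phgdh (1.40 ± 0.26), Sars (1.40 ± 0.15) and Slc3a2 (1.37 ± 0.14) were among those higher. Slc7a1 went from 725, 1010.1 and 1436 CPM (low, median and high) to 79.1, 115 and 125, with no overlap (-3.20 ± 0.18, edgeR adjusted p = 4.95e-28). Slc38a2 (-1.50 ± 0.16) and Eprs (-1.06 ± 0.15) were lower too. The Eprs value was -0.27 with total counts alone and -0.0068 in limma, neither of them called (adjusted p = 0.113 and 0.965, edgeR and limma). Asns was higher at 8 h (11.2, 20.3 and 33.2 CPM against 7.57, 9.84 and 12.5; 1.06 ± 0.28).

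Vitrified follicles of the same time on the 2 plates were compared to see how far a plate alone can move these genes, a contrast added after the data were seen. At 1 h no member was called by edgeR, DESeq2 or limma (all genes 0.294% higher and 1.08% lower by adjusted p in edgeR). By edgeR 5 members had an unadjusted p under 0.05, against 1610 of all 11889 genes. At 8 h 2 were higher on the vitrified-only plate, Lars and Vars, and 5 lower, Hars, Sars, Tars, Psph and Shmt2. Of all genes 10.3% were higher and 13.1% lower, so the 5 lower were near that share and the 2 higher below it. Hars, Lars, Vars and Psph lost their calls with total counts alone, and Lars, Sars, Vars and Psph without the filter. In limma Hars, Sars and Tars were not called. Shmt2 showed the largest gap, 49 ± 7.65 CPM (SD, n = 9) against 128 ± 22.1 (n = 3; -1.39 ± 0.24, edgeR adjusted p = 8.91e-06). What differed between the plates besides the well is not named in the labels.

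Other genes of the same pathways were read from lists beside the members. Of 17 genes of mitochondrial synthetases 16 were tested, and from 1 to 4 h in fresh follicles none rose and 4 fell (median -0.69), against 21.9% and 24.5% of all genes, so the share that fell was near that of all genes. The 20 cytosolic genes had 16 higher and none lower. Nars2 (-1.89 ± 0.50), Aars2 (-1.62 ± 0.50) and Iars2 (-1.56 ± 0.23; 14.1 ± 4.57 to 4.81 ± 1.92 CPM) fell most. From 4 to 8 h 6 of these 16 rose and none fell (all genes 20.8% and 15.7%; median 1.34), led by Tars2 (2.90 ± 0.43). In vitrified follicles none rose and 3 fell from 1 to 4 h, with a median of -0.05, and 6 rose and 1 fell from 4 to 8 h (median 1.32). Of the 3 scaffold proteins of the multi-synthetase complex, Aimp2 (2.12 ± 0.35) and Eef1e1 (1.86 ± 0.37) rose from 1 to 4 h, and Aimp1 (1.67 ± 0.30) and Aimp2 (1.2 ± 0.31) rose from 4 to 8 h.

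Among 21 other amino acid transporters, 13 were tested, and 3 rose and 2 fell from 0 to 1 h, 6 and 5 from 1 to 4 h, and 6 and 3 from 4 to 8 h in fresh follicles. Over all genes these shares were 19% and 23.1%, 21.9% and 24.5%, and 20.8% and 15.7%. Slc7a8, a light chain that joins Slc3a2 to exchange neutral amino acids, went from 869 ± 275 CPM at 0 h (SD, n = 18) to 7426 ± 2080.4 at 1 h (n = 6), 34922 ± 7475 at 4 h (n = 7) and 12569 ± 2285 at 8 h (n = 4). Its early steps were 3.09 ± 0.15 and 2.23 ± 0.21 (edgeR adjusted p = 4.69e-32 and 2.37e-15). Slc7a11, the cystine light chain of Slc3a2, rose by 1.41 ± 0.41 and 2.35 ± 0.43, and Slc16a10, a carrier of aromatic amino acids, by 2.93 ± 0.26 from 0 to 1 h. Slc38a3 was at 0 in all 7 fresh 4 h libraries after 2.74 ± 2.18 CPM at 1 h.

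Of 22 other genes of amino acid synthesis and folate metabolism 17 were tested, with 4 higher and 5 lower from 1 to 4 h (all genes 21.9% and 24.5%). Cbs, which joins serine to homocysteine, fell from 74.2 ± 31.5 to 0.349 ± 0.337 CPM (-7.50 ± 0.65, edgeR adjusted p = 1.42e-16). Cth, the next enzyme on the way to cysteine, rose to 4.72 ± 1.81 CPM (3.28 ± 0.75) and Bcat1, a transaminase of branched-chain amino acids, to 19.4 ± 7.73 (3.05 ± 0.56). Got1, the cytosolic aspartate transaminase, had risen in the first hour (2.15 ± 0.16).

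The list of amino acid response genes held 20 names, 17 of them tested. In fresh follicles 7 rose and 1 fell from 0 to 1 h, 4 rose and 4 fell from 1 to 4 h, and 3 rose and 2 fell from 4 to 8 h. The shares over all genes were 19% and 23.1%, 21.9% and 24.5%, and 20.8% and 15.7%, so the later counts were near those of all genes. Atf3 (5.64 ± 0.41), Chac1 (3.97 ± 0.63) and Nupr1 (3.08 ± 0.42), genes often switched on with ATF4, led the first step, and Atf3 then fell by 4.67 ± 0.58. Atf4 mRNA, named here after its values were seen, was 81.5 ± 19.4 CPM at 0 h (SD, n = 18), 571 ± 98 at 1 h (n = 6), 492 ± 99.1 at 4 h (n = 7) and 186 ± 34.9 at 8 h (n = 4). It rose by 2.81 ± 0.14 and fell from 4 to 8 h (-1.40 ± 0.22, edgeR adjusted p = 1.79e-07). ATF4 is known to be set mainly by translation of its mRNA, which these data do not measure. Trib3, another known target, had 2.74 ± 1.86 CPM at 1 h and did not pass the filter on low counts.

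**Figure D5:**
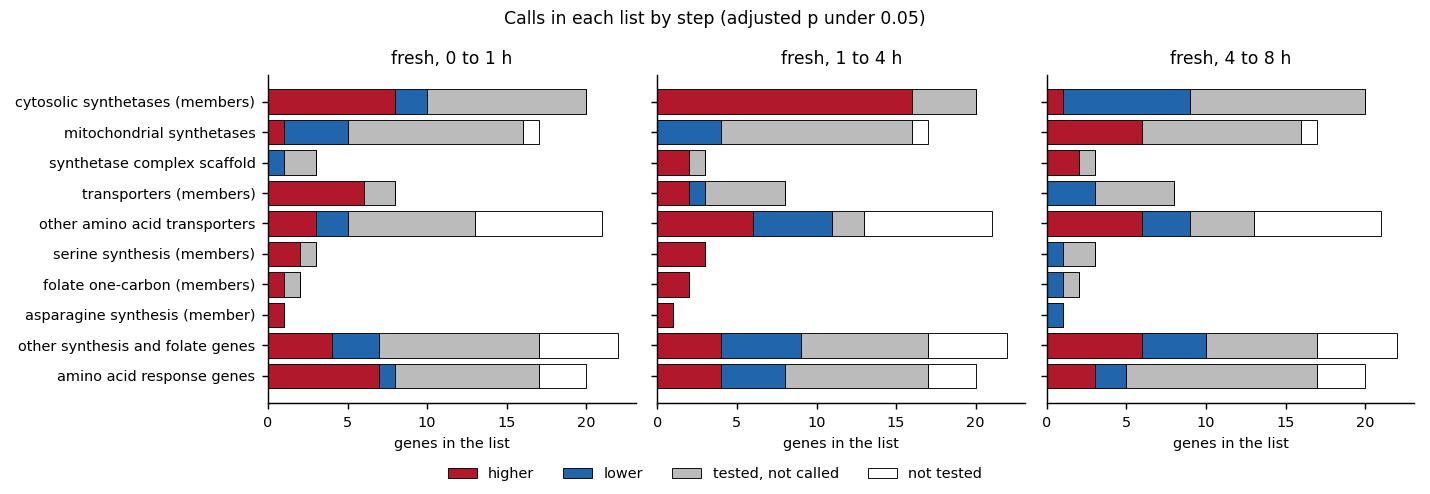
Number of genes (horizontal axis) called higher, called lower, tested but not called and not tested in each list (rows) for 3 steps in fresh follicles, with the members' roles beside lists of related genes. From 1 to 4 h the bar of the 20 cytosolic synthetases has 16 higher and none lower, and that of the 17 mitochondrial synthetases has none higher and 4 lower. With total counts alone the 0 to 1 h and 4 to 8 h calls of the members are more evenly split. Those of all 11889 genes then have 1159 higher and 5266 lower for 0 to 1 h, and 5093 and 715 for 4 to 8 h.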

How the data were processed

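Single follicles were sequenced as whole-transcript libraries (Smart-Seq2 cDNA, Nextera XT, no molecular identifiers and no strand information), per the labels' protocols. Estimated counts per gene were deposited by the authors for the 83 libraries, and 17.2% of the values are not whole, so they were rounded. A table of log2(TPM + 1) values, also made by the authors, was used for levels between genes and for an alternative test. Partek, Bowtie2, HISAT2, DESeq2 and the mm10 build are named in the submitters' processing notes. No source used here gives the treatment of reads that match more than 1 gene.

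The members and lists were chosen with earlier results of these data known. Rounded counts were filtered (filterByExpr, minimum count 10), scaled by TMM and fitted in edgeR 4.0.16 (R 4.3.3) with a quasi-likelihood model holding 10 means, one for each group and plate. P-values were adjusted by the Benjamini-Hochberg method over the 11889 genes that passed of 21572. SEs were taken from the fold change and its F statistic. Code was tested on simulated data. Alternatives were total-count scaling, no filter, DESeq2 1.42.0, an additive plate term, limma 3.58.1 on the log2 values (genes with a mean of at least 1) and leaving out each library of groups of up to 5. Named in the text were called members with a log2 fold change of at least 1, up to 12 a comparison, and any called between vitrified and fresh follicles. Members shown library by library were those with the largest spans of each role, with Dars and Mars for the smallest. Of the related lists up to 3 called genes a step were named. Gene positions come from GENCODE vM21 and promoter windows from RefSeq, both on GRCm38. Total counts of 682200 to 6504588 a library set the precision of low genes.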

Additional observations from a re-analysis of the deposited data

Results flagged for a closer look

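Values of the 11 members shown library by library were searched for a single follicle far from the rest of its group, in 77 groups of 4 to 10 libraries. Chance alone marks about 1 in 20 such groups, and 2 of the 77 were marked. Nars stood at 89.4 CPM in vitrified 8 h library 9 of the vitrified-only plate, where the next highest was 64.7 CPM and the group mean 59.2. Slc1a4 stood at 27.4 CPM in fresh 1 h library 5, from 67 counts, where the next highest was 12.5 CPM and the group mean 13.4. The Slc1a4 library enters the fresh steps from 0 to 1 h and 1 to 4 h and the comparison with vitrified follicles at 1 h.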

How the results depend on the processing

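Of the 154 member calls, 111 kept their direction and call in every alternative other than leaving out a library, and 11 checks reversed a direction. Of the 32 counts of members, total-count scaling moved 9 and limma 10. Total-count scaling gave 12 members higher and 11 lower for fresh 0 to 1 h, 10 higher for fresh 4 to 8 h, 8 higher and 12 lower for vitrified 0 to 1 h, 10 higher for vitrified 4 to 8 h and 2 lower for 1 to 8 h on the vitrified-only plate. It left 0 higher for vitrified against fresh at 0 h and, between plates at 8 h, 0 higher and 3 lower. Reversed under it were Tars in fresh 0 to 1 h (-0.0394), Slc38a2 in vitrified 4 to 8 h (0.0324) and, on the vitrified-only plate, Cars (0.0361), Iars (0.353), Tars (0.0581) and Mthfd2 (0.0893). Calls over all genes went from 2257 higher and 2749 lower to 1159 and 5266 for fresh 0 to 1 h, and from 2474 and 1866 to 5093 and 715 for fresh 4 to 8 h. They went from 2552 and 2621 to 1259 and 5375 for vitrified 0 to 1 h, from 2618 and 1789 to 4717 and 835 for vitrified 4 to 8 h, and from 3807 and 3256 to 6497 and 1589 on the vitrified-only plate.

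Without the filter 1 member was lower for vitrified 0 to 1 h, 0 were higher at 0 h against fresh follicles, and 0 higher and 3 lower between plates at 8 h. DESeq2 gave 2 higher for fresh 4 to 8 h, 5 lower for vitrified 0 to 1 h and 2 higher in vitrified follicles at 0 h. Limma on log2(TPM + 1), with 27 members among 7244 genes, gave 11 higher for fresh 0 to 1 h, 9 higher for fresh 4 to 8 h, 4 lower for vitrified 0 to 1 h, 1 lower for vitrified 1 to 4 h, 9 higher and 9 lower for vitrified 4 to 8 h, and 2 lower on the vitrified-only plate. It called 0 higher and 7 lower in vitrified follicles at 0 h (all genes 30 and 1392, against 64 and 51 by edgeR) and 1 lower between plates at 8 h. There it reversed, for 1 to 8 h on the vitrified-only plate, Cars (0.22), Iars (0.44), Nars (0.10), Tars (0.30) and Mthfd2 (0.34). The cause of these changes was not tested.

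Leaving out 1 library at a time gave 1 to 2 members higher for fresh 4 to 8 h (2 without fresh 8 h library 4), 1 to 3 lower for vitrified 0 to 1 h (1 without vitrified 1 h library 4 or 5), 1 to 3 lower for vitrified 1 to 4 h (1 without vitrified 1 h library 1) and 1 to 3 higher for vitrified 4 to 8 h (1 without vitrified 8 h library 3). No paired analysis was possible because the labels carry no replicate numbers, and those used here follow accession order. Low counts limit Slc7a3, Slc7a5 and Slc1a4 most.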
